A study of Rattus norvegicus with 8 samples.

Results

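Contractile smooth muscle marker genes were examined in vessels of hypertensive and control rats. The 10 genes are Acta2, Actg2, Myh11, Tagln, Cnn1, Smtn, Lmod1, Myocd, Des and Synpo2. They were given as a list, and a probe was counted as theirs where its transcript accession belongs to one of these rat genes. All 10 were on the array, read by 13 of its 45598 probes, and all 13 probes were well above background on all 8 arrays. The array as a whole named 16678 genes, and 24552 genes or unnamed probes entered the tests. Vessels came from 4 male hypertensive disease model rats and 4 male control rats of the Wistar-Kyoto strain, with 1 array for each animal. The strain entry of the hypertensive rats also reads Wistar-Kyoto, no age or treatment is given for either group, and neither the hypertensive model nor the vessel is named in the sources used here. Replicates 1 to 4 of a group are separate rats.

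In the wall of an artery, smooth muscle cells shorten by sliding actin filaments over myosin, and tone sets the width of the vessel. Differentiated cells make a smooth muscle set of actins, myosin heavy chain and actin-binding proteins. Many genes of that set are switched on by serum response factor (SRF), which binds CArG boxes in DNA together with the coactivator myocardin. When smooth muscle cells divide, migrate or lay down matrix they usually lower this set, and it therefore serves as a marker of the contractile state.

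The 250 bases before the annotated start of Acta2 show the kind of element that ties these genes to SRF. A CArG box is a stretch of A and T letters between a CC and a GG, and it reads as the same kind of element on either strand. Sequences are from RefSeq, build GRCr8, which is not the older build named in the scanner files. Of the 10 genes, 6 matched a window (Acta2, Actg2, Cnn1, Smtn, Des and Synpo2), and 4 had none (Myh11, Tagln, Lmod1 and Myocd). A full box was found in 0 of the 6 windows, and a box with up to 1 C or G among its inner letters in 1 of them, that of Acta2. Among all 33469 windows of 250 bases, 1.5% held a full box and 8.08% a box with up to 1 such letter. The Acta2 window is chr1:241172504-241172753 on the minus strand, printed 5′ to 3′ on the gene's strand. Capitals mark its boxes, which start 134 and 84 bases before the gene start and hold 5 A or T letters each in the inner part.
Acta2: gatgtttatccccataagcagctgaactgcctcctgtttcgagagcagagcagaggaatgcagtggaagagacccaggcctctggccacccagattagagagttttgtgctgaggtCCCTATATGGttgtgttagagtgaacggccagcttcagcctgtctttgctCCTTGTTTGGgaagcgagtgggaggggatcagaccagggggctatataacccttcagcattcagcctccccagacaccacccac

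None of the 10 contractile genes passed the threshold between hypertensive and control vessels. The test was limma over all 24552 tests, with an adjusted p under 0.05, and 4.53% of all tests passed it. At an unadjusted p under 0.05 the count was 1 of 10, the tropomodulin relative Lmod1, where 20.3% of all tests reached that level. The estimated change was above 0 for 8 of the 10 genes, beside 57.7% of all tests. That number was 5 with quantile normalization or median centring and 4 without hypertensive replicate 3. The median log2 change of the 10 was 0.10, beside 0.04 over all tests, and it was -0.048 without hypertensive replicate 3. Levels below are log2 signal relative to the 75th percentile of the array. Changes are hypertensive minus control on that scale, with the standard error of the fit (n = 4 rats per group), and intervals are 95% intervals not adjusted for the number of tests. In whole vessels, fewer smooth muscle cells and less RNA per cell cannot be told apart.

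**Figure D1:**
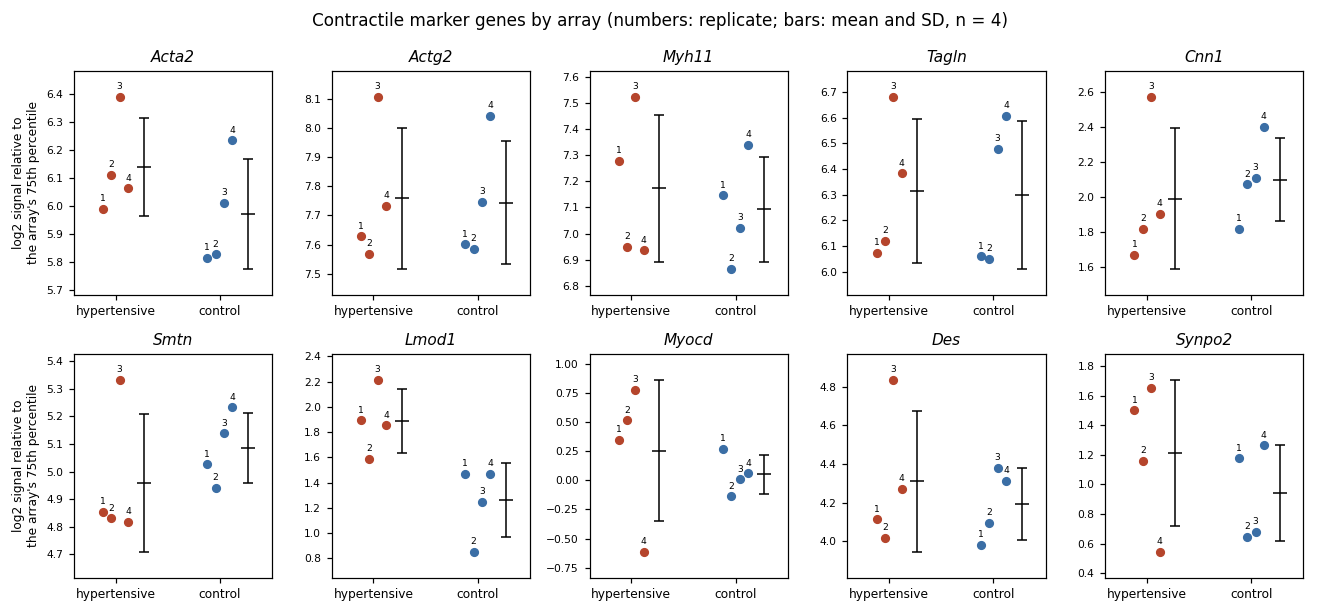
Level of each contractile gene on each array, in log2 signal relative to the array's 75th percentile; points are single rats with their replicate number, and bars to the right of them give the mean and SD of 4 rats. The groups overlap in 9 of the 10 panels, and only Lmod1 has every hypertensive rat above every control; hypertensive replicate 3 is the highest array in each panel.

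Acta2 encodes the actin of vascular smooth muscle and is the most used marker of the cell type. Its level was 5.99, 6.11, 6.39 and 6.06 in hypertensive replicates 1 to 4, against 5.81, 5.83, 6.01 and 6.23 in control replicates 1 to 4. The groups overlapped, with hypertensive replicate 3 alone above all controls. The difference was 0.17 ± 0.13 (adjusted p = 0.503), a ratio of 1.12 with an interval of 0.92 to 1.37. Actg2 encodes the gamma actin of enteric smooth muscle, which blood vessels also make. On its brighter probe it read 7.63, 7.57, 8.11 and 7.73 in hypertensive vessels, against 7.60, 7.59, 7.75 and 8.04 in control vessels. The difference was 0.016 ± 0.15 (adjusted p = 0.967), with an interval of -0.32 to 0.35. The second Actg2 probe gave 0.061 ± 0.15, so both probes lay well within the spread between rats. Coding sequences of the muscle actins are near-identical, the probe sequences are not in the files used here, and how far each probe reads another actin is therefore uncertain.

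Myh11, the smooth muscle myosin heavy chain, is the motor of the thick filament and the marker most restricted to this cell type. It stood at 7.28, 6.95, 7.53 and 6.94 in hypertensive vessels, against 7.15, 6.87, 7.02 and 7.34 in control vessels. The group means differed by 0.079 ± 0.16 (adjusted p = 0.813), a ratio of 1.06 with an interval of 0.82 to 1.35. Rats of one group thus differed more from each other than the group means did.

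Among the actin-binding members, Tagln encodes transgelin (SM22 alpha), Cnn1 encodes calponin, which restrains the myosin motor on actin, and Smtn encodes smoothelin, found on contractile stress fibres. Tagln read 6.07, 6.12, 6.68 and 6.38 in hypertensive vessels, against 6.06, 6.05, 6.48 and 6.61 in control vessels. Cnn1 read 1.67, 1.82, 2.57 and 1.91 in hypertensive vessels, against 1.82, 2.07, 2.11 and 2.40 in control vessels. The groups overlapped for both genes, and for Cnn1 the hypertensive rats spread wider, with 2 below and 1 above all controls. The difference was 0.017 ± 0.18 for Tagln (adjusted p = 0.971) and -0.11 ± 0.20 for Cnn1 (adjusted p = 0.8). Smtn read 4.85, 4.83, 5.33 and 4.82 in hypertensive vessels, against 5.03, 4.94, 5.14 and 5.23 in control vessels. Here 3 of the 4 hypertensive rats lay below all controls and the remaining one, replicate 3, above all of them. The Smtn difference was -0.13 ± 0.13 (adjusted p = 0.633), with an interval of -0.43 to 0.18. Without hypertensive replicate 3 it was -0.25, the lowest value with any 1 array left out.

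Lmod1 encodes leiomodin, which nucleates actin filaments in smooth muscle, and it was the one member whose groups did not overlap (13.6% of all tests had groups without overlap). On its brighter probe (by the mean over all 8 arrays) the level was 1.89, 1.59, 2.21 and 1.85 in hypertensive vessels, against 1.47, 0.85, 1.25 and 1.47 in control vessels. The difference of 0.63 ± 0.17 is a ratio of 1.55 with an interval of 1.18 to 2.03, and its adjusted p of 0.0812 missed the threshold. The second probe, for the same transcript accession, read 1.18, 1.22, 1.77 and 1.31 in hypertensive vessels, against 1.57, 0.98, 1.30 and 1.41 in control vessels. In controls this second probe was the brighter one on average (1.32, against 1.26 for the first), so the first stands for the gene through its level in hypertensive rats, and the lack of overlap and the unadjusted call rest on that choice. The groups overlapped on the second probe, and its difference was 0.057 ± 0.17 with an interval of -0.32 to 0.43. The brighter probe minus the dimmer one was 0.71, 0.37, 0.44 and 0.54 in hypertensive rats, against -0.10, -0.13, -0.052 and 0.059 in controls. The gap between the probes thus differed between the groups by 0.57 in log2 (higher in 4 of 4 hypertensive rats than in any control). A two-sided exact permutation test gave p = 0.0286, the smallest that 4 against 4 allows, and 0.0858 adjusted over the 3 members with a pair of probes. Unless another pair also reached the smallest p, the adjusted value of Lmod1 could not have been under 0.05. With background correction by normexp the brighter probe passed (0.59, adjusted p = 0.0421), and with the mean of both probes the difference was 0.34 (adjusted p = 0.292). Over all alternatives tried the adjusted p of Lmod1 ran between these values. The estimate for Lmod1 thus differed by probe, and the cause was not tested.

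**Figure D2:**
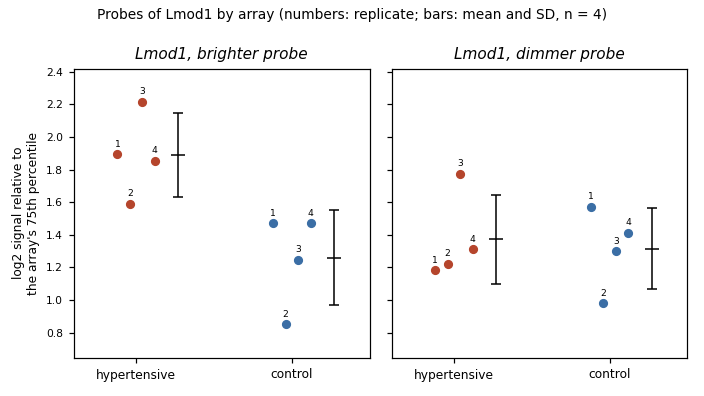
Level of Lmod1 on its brighter probe (left) and its dimmer probe (right), in log2 signal relative to the array's 75th percentile, with single rats as numbered points and the mean and SD of 4 rats as bars. The groups are apart on the brighter probe (1.59 to 2.21 in hypertensive, 0.85 to 1.47 in control rats) and overlap on the dimmer one.

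The members of the cell's scaffold gave no difference past the threshold either. Des encodes desmin, the intermediate filament protein of muscle, and Synpo2 encodes synaptopodin 2, an actin-bundling protein. Des read 4.11, 4.02, 4.84 and 4.27 in hypertensive vessels, against 3.98, 4.10, 4.38 and 4.31 in control vessels, a difference of 0.12 ± 0.18 (adjusted p = 0.753). Synpo2 read 1.501, 1.16, 1.65 and 0.54 in hypertensive vessels, against 1.18, 0.65, 0.68 and 1.27 in control vessels, a difference of 0.27 ± 0.25 (adjusted p = 0.587). The hypertensive rats spanned more than the controls in both genes, and hypertensive replicate 4 was the lowest of all 8 arrays for Synpo2. Desmin is also made in skeletal and heart muscle. Of 21 listed markers of those muscles on the array, Myh6, Myh7, Myl1 and Myl2 were above background on no array. The summed signal of the 14 tested ones was 3.36 to 4.53 times the 75th percentile in hypertensive vessels and 3.79 to 3.94 times in control vessels. Among them Mb (myoglobin) fell and Myh1, a fast skeletal myosin, rose (adjusted p = 0.0377 and 0.0397). Myh1 was dim, with a mean level of -2.84 in hypertensive and -5.11 in control vessels. It was above background on 4 of 4 hypertensive and 3 of 4 control arrays. Mb lost its call without hypertensive replicate 1 or any control replicate, and Myh1 without any array other than hypertensive replicate 2.

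Myocd encodes myocardin, the coactivator that drives the rest of the set. Its brighter probe read 0.35, 0.52, 0.78 and -0.62 in hypertensive vessels, against 0.27, -0.14, 0.0094 and 0.062 in control vessels. In hypertensive vessels 3 of 4 rats lay above all controls and replicate 4 below all of them. The difference was 0.21 ± 0.27 (adjusted p = 0.705), with an interval of -0.40 to 0.82, a ratio of 0.76 to 1.76. The second Myocd probe gave 0.17 ± 0.26, and the gap between the probes differed by 0.035 between the groups, within the spread between rats (SD 0.167 in hypertensive and 0.059 in control rats). Without hypertensive replicate 4 the Myocd difference was 0.50, with an adjusted p of 0.0696, against a highest adjusted p of 0.967 with any 1 array left out. Hypertensive replicate 4 also had the highest summed signal of 14 white adipocyte markers, 106.8 times the 75th percentile, while the other 7 arrays had 23.8 to 42.3. The part of fat tissue in the low Myocd and Synpo2 values was not tested.

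**Figure D3:**
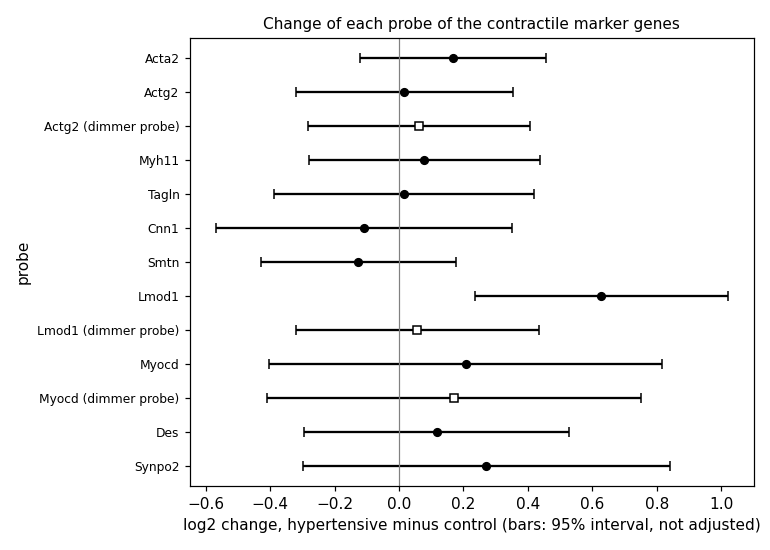
Log2 change, hypertensive minus control, of all 13 probes of the contractile genes with 95% intervals not adjusted for multiple tests; filled circles are the probes that stand for the gene and open squares the second probes of Actg2, Lmod1 and Myocd. Every interval holds 0 except that of the brighter Lmod1 probe (0.24 to 1.02).

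No member passed between the groups, but the contractile genes shared their highest rats. Hypertensive replicate 3 was the highest of the 8 arrays for 10 of 10 members, where it was the highest for 18.3% of all tests. Its members lay 0.25 to 0.58 above the mean of the hypertensive group, with a median of 0.37. In the control group, replicate 4 was above the group mean for 10 of 10 members, with a median deviation of 0.26, and replicate 2 was below it for all 10, with a median of -0.17. Deviations from a group mean sum to 0, so that 1 high rat sets the others lower. The members did not move alike in every rat. In hypertensive replicate 4, Myocd deviated by -0.87 and Synpo2 by -0.67 from the group mean, while Tagln lay 0.068 above it. Over the 8 arrays, with group means subtracted, the correlation of a member with the mean of the other 9 ran from r = 0.483 for Myocd (Spearman rho 0.405) to r = 0.974 for Smtn (rho 0.976). Without hypertensive replicate 3 and control replicate 4 it ran from -0.377 (Cnn1) to 0.843 (Smtn). Those 2 arrays were picked as the farthest from the median on the members' own mean, so part of this fall follows from the choice. These values describe the arrays and carry no p. The SD within the hypertensive group exceeded that within the control group for 7 of 10 members, beside 64.8% of all tests. Without hypertensive replicate 3, a rat singled out for its high values, it did so for 2 of 10, beside 62% of all tests.

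Spread differed among the members. The pooled SD within groups was 0.19 for Acta2, 0.20 for Smtn and 0.23 for Actg2, close to the median of 0.18 over all tests. It was 0.42 for Synpo2 and 0.45 for Myocd, larger than in 91.1% and 92.9% of all tests. The summed signal of the 10 members was 507 to 731 times the 75th percentile in hypertensive vessels and 488 to 668 times in control vessels. That of 13 fibroblast markers was 1211 to 2049 times in hypertensive vessels and 1438 to 2171 times in control vessels. Hypertensive replicate 3 held the highest summed level of the contractile genes and the lowest of the fibroblast markers, and control replicate 2 the lowest of the contractile genes and the highest of the fibroblast markers. Hypertensive replicate 2 went the other way, with the second lowest sum of both lists (507 and 1315). The part of the mix of cell types in the shared variation was not tested.

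**Figure D4:**
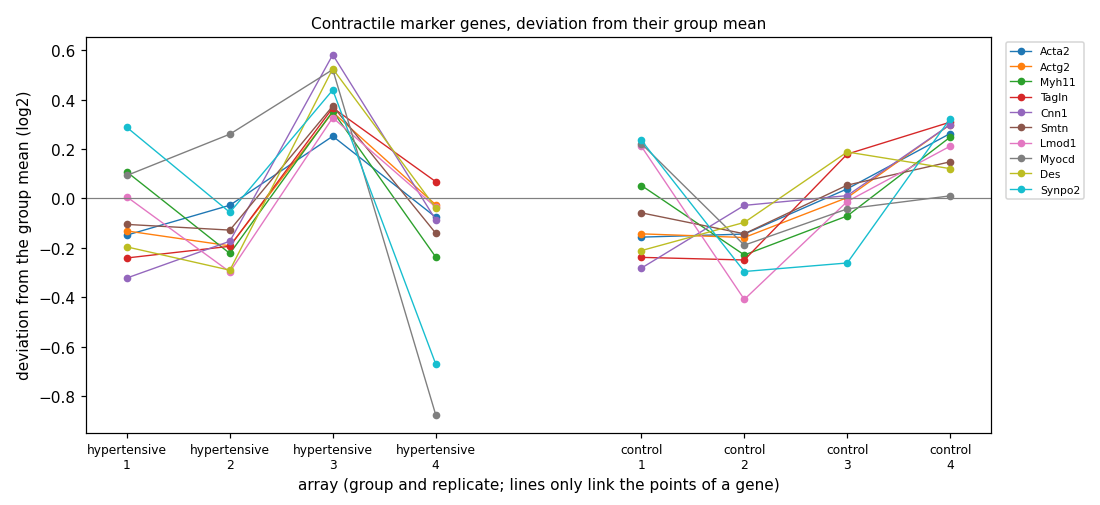
Deviation of each contractile gene from its group mean (log2) on each of the 8 arrays, with lines that only link the points of a gene. All 10 genes lie above the mean in hypertensive replicate 3 and in control replicate 4, and all 10 below it in control replicate 2.

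Outside the list, the genes most like the 10 members were sought by their Pearson correlation with the members' mean over the 8 arrays, after each group mean was subtracted. They share arrays and scaling with the members, and as the highest of all named genes they carry no p. Agap1, a regulator of small GTPases, had r = 0.99 (Spearman rho 0.976), and Gjc1, a connexin of gap junctions, had r = 0.986 (rho 0.976). Kcnh2, a voltage-gated potassium channel, and Ndrg2 each had r = 0.978 (rho 0.929), and Tpm2, the beta tropomyosin that lies along actin filaments, had r = 0.977 (rho 0.952). Without the 2 arrays farthest from the median, hypertensive replicate 3 and control replicate 4, r lay between 0.895 (Gjc1) and 0.954 (Agap1). Like the members, none of these 5 genes passed between the groups, with log2 changes of -0.10 to 0.16 and the lowest adjusted p at 0.578 (Ndrg2).

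Genes that work beside the members on the contractile apparatus mostly did not pass either. Of 13 tested genes for myosin light chains, their kinases and their phosphatase, 1 was lower and 0 were higher, where 1.91% of all tests were lower and 2.61% higher. The lower one was Myl9, the regulatory light chain whose phosphorylation starts contraction. It read 6.72, 6.84, 7.09 and 6.73 in hypertensive vessels, against 7.23, 7.19, 7.37 and 7.38 in control vessels. No hypertensive rat reached the lowest control, and the difference was -0.45 ± 0.10 (adjusted p = 0.0481), 1.36-fold lower. The call sat close to the threshold and was lost without any 1 array but hypertensive replicate 3 (adjusted p of 0.0228 to 0.115). Dapk3, a kinase that acts on the light chain and on its phosphatase, had the next smallest p in that list, with a difference of -0.30 ± 0.09 (adjusted p = 0.112). Of 27 tested thin filament and dense body genes, such as those for tropomyosin, vinculin and the sarcoglycans, 0 passed by limma, where 4.53% of all tests did. An unadjusted p under 0.05 was reached by 3 of them, or 11.1% of the list, beside 20.3% of all tests. The smallest p were those of Ilk, integrin-linked kinase (-0.19 ± 0.07, adjusted p = 0.165), and Sgcb, beta-sarcoglycan (0.27 ± 0.11, adjusted p = 0.219). The median change was 0.037 for the light chain list and 0.055 for the thin filament list, beside 0.041 over all tests.

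Transcription regulators that act on contractile genes were examined as well. Of 19 tested regulators of the SRF and myocardin-related pathway, 1 was higher and 2 were lower, where 2.61% of all tests were higher and 1.91% lower. Their median change was 0.13, beside 0.041 over all tests. Klf4, a zinc finger factor that represses contractile genes when smooth muscle cells leave the contractile state, was 4.13, 4.08, 4.11 and 4.42 in hypertensive vessels, against 5.11, 4.85, 5.18 and 4.69 in control vessels. It fell by 0.77 (SE 0.13, adjusted p = 0.0137), 1.71-fold lower. Klf5, a related factor tied to growth of smooth muscle, was 2.53, 2.52, 2.15 and 1.78 in hypertensive vessels, against 1.69, 1.33, 1.17 and 1.46 in control vessels. It rose by 0.83 ± 0.18 (adjusted p = 0.0408), 1.78-fold, and its other probes gave 1.02 and 0.65. The Klf5 call was lost without any 1 array but hypertensive replicate 4 (adjusted p of 0.0107 to 0.104). Klf4 kept its call without any 1 array, with an adjusted p of up to 0.0464. With a block for replicate number in the limma fit, neither kept it (adjusted p = 0.073 for Klf4 and 0.064 for Klf5). The fall of Klf4 was not particular to the listed regulators. Fos, Jun and Dusp1, outside the list and chosen after their values were seen, also fell past the threshold (-1.81, -1.19 and -1.83). Whether these falls share a cause with that of Klf4 was not tested.

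Fhl2 encodes a LIM domain protein that binds SRF and other regulators. Its level was 1.23, 1.36, 1.42 and 1.23 in hypertensive vessels, against 1.88, 1.93, 1.87 and 1.75 in control vessels. The groups lay apart by more than the range within either, and Fhl2 fell by 0.55 (SE 0.083, adjusted p = 0.00776), 1.46-fold lower. The call held without any 1 array (adjusted p of up to 0.0291). Both annotated starts of Fhl2 have a full CArG box in the 250 bases before them, and those windows are given here for comparison with that of Acta2. The first is chr9:52954541-52954790 and the second chr9:52923327-52923576, both on the minus strand, with the box in capitals 95 and 58 bases before the start. The windows of Klf4 and Klf5 hold no box of either kind.
Fhl2 first start: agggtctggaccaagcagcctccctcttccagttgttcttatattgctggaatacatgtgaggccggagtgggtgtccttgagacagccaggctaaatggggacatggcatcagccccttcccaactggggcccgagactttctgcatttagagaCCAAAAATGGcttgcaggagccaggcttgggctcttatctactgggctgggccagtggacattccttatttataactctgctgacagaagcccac
Fhl2 second start: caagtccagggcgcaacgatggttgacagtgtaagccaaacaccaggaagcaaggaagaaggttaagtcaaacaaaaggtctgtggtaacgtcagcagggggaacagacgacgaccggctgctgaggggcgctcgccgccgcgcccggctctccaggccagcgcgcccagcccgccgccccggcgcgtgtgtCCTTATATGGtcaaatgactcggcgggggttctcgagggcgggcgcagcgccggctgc

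**Figure D5:**
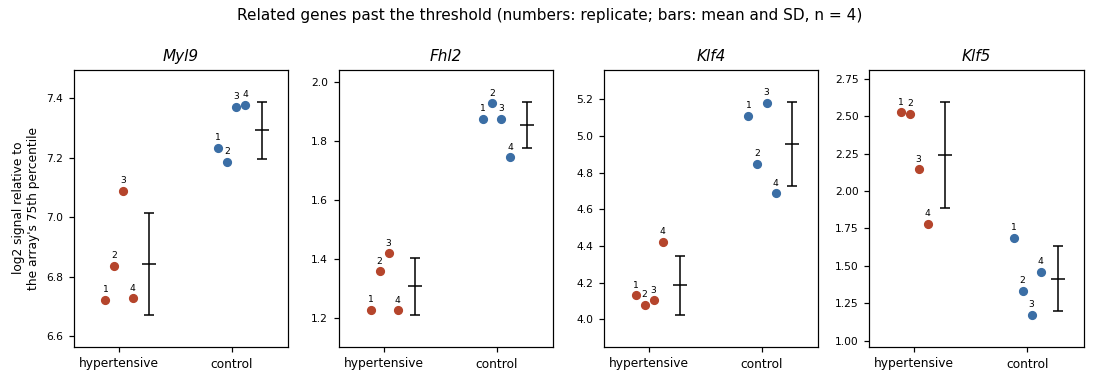
Level of Myl9, Fhl2, Klf4 and Klf5 on each array, in log2 signal relative to the array's 75th percentile, with single rats as numbered points and the mean and SD of 4 rats as bars. Hypertensive rats lie below all controls for Myl9, Fhl2 and Klf4 and above all controls for Klf5. The genes are shown because they passed the threshold on these same arrays, so their lack of overlap adds no separate result. Groups did not overlap in 13.6% of all tests.

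Genes that smooth muscle cells gain as they leave the contractile state were examined next. Of 19 tested by limma, 0 were higher and 1 was lower past the threshold (2.61% and 1.91% of all tests). An unadjusted p under 0.05 was reached by 3 (20.3% of all tests did). Estimates lay below 0 for 14 and above 0 for 5 (26.3%, beside 57.7% of all tests), with a median change of -0.053. The fibroblast and macrophage markers leaned the same way, with 15.4% and 23.1% above 0. These lists share genes with the present one, Lum and Pdgfra with the fibroblast list and Cd68 with the macrophage list. All of the shared genes had estimates below 0, so the lists are not separate counts. The 1 gene past the threshold was Spp1, osteopontin, lower in hypertensive vessels (adjusted p = 0.00176). It was measured above background on 2 of 4 hypertensive arrays and on all 4 control arrays, and its call held without any 1 array. Lum, lumican of the collagen matrix, had the next smallest p, with a difference of -0.45 ± 0.13 (adjusted p = 0.103). Markers of other wall cells gave few calls. By limma 0 of 14 endothelial, 0 of 13 fibroblast and 0 of 9 pericyte markers passed, with 6, 2 and 1 of them at an unadjusted p under 0.05. Those are 42.9%, 15.4% and 11.1% of the lists, beside 20.3% of all tests. The 6 endothelial markers went both ways, and the median of their list was 0.015. The endothelial junction gene Cldn5 differed by -0.43 ± 0.11 (adjusted p = 0.071) and Eng by -0.32 ± 0.09 (adjusted p = 0.0929). Flt1 and Vwf, chosen after their values were seen, differed by 0.43 ± 0.15 and 0.46 ± 0.17 (adjusted p = 0.157 and 0.178). Serpinf1 differed by -0.55 ± 0.16 (adjusted p = 0.0986), Anpep by -0.45 ± 0.18 (adjusted p = 0.202) and Cspg4 by -0.53 ± 0.26 (adjusted p = 0.287). Of 14 adipocyte markers 0 passed and 1 had an unadjusted p under 0.05 (Scd, 2.13 ± 0.79, adjusted p = 0.175, with Fasn next at 0.92 ± 0.42 and 0.264). Their estimates were above 0 for 12 of 14 (85.7%, beside 57.7% of all tests), with a median change of 0.27. Of 13 macrophage markers only Mrc1 passed, lower in hypertensive vessels (adjusted p = 0.0496). Among the runs with 1 array left out, its call was kept only without hypertensive replicate 4. Csf1r was at -0.49 ± 0.12 (adjusted p = 0.0557), and 5 of the 13 had an unadjusted p under 0.05. Lyz2, chosen after its values were seen, differed the other way, by 0.53 ± 0.14 (adjusted p = 0.0799). Of the 13 macrophage markers, 10 had estimates below 0, with a median change of -0.22. Their mean log2 level was 1.651 to 2.095 in hypertensive vessels and 1.929 to 2.134 in control vessels. Their summed signal was 177 to 247 times the 75th percentile in hypertensive vessels and 158 to 201 times in control vessels. That sum weighs bright genes most, and Lyz2 was the brightest of the list (mean 6.90 in hypertensive and 6.37 in control vessels).

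Across the whole array 641 tests were higher and 470 lower in hypertensive vessels. With quantile normalization the split was 529 higher and 586 lower, and with median centring 422 and 652. The 1111 calls became 702 without hypertensive replicate 2 and 641, 738 and 715 without control replicates 1, 2 and 3. The signal that served as the scaling point, the 75th percentile, lay at 357 to 478 on hypertensive arrays and at 405 to 503 on control arrays. All 8 arrays lay on 1 slide, with the groups in separate rows of it, so that row and group cannot be told apart.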

How the data were processed

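Total RNA was extracted with Trizol and labelled with Cy3, per the labels' protocols, and hybridised to a 1-colour Agilent rat array. The deposited scanner files give each spot an intensity, background-subtracted by Agilent Feature Extraction (version 10.7.1.1 per the file headers, 12.1.1.1 per the submitters' processing notes). The deposited value table holds a linear ratio that equals the intensity divided by a constant 0.995 to 0.997 times the 75th percentile of each array, with column medians of 0.086 to 0.101, and served only as an alternative. It was not centred on genes.

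Spots flagged as outliers were left out, the rest averaged per probe as log2 intensity, and the array's 75th percentile subtracted. Probes well above background on at least 3 of 4 arrays of a group were kept. RefSeq accessions named 46.6% of 45598 probes, and the brightest kept probe stood for a gene. The comparison used lmFit and eBayes of limma (3.58.1, under R 4.3.3; group as the only term, Benjamini-Hochberg over 24552 tests, threshold 0.05), and the fit was tested on simulated data. Members and gene lists were chosen with earlier results of these data known, so lists get counts and no test. Named were all members, listed genes past the threshold, the 2 smallest p of lists with up to 1 call, and the 5 genes most like the members. The number of arrays limits the precision. Alternatives were another background correction, normalization, detection filter, probe rule, array weights, the value table, a replicate block and leaving out each array.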

Additional observations from a re-analysis of the deposited data

Results flagged for a closer look

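Levels that stood apart from the other 3 rats of their group, by Dixon's criterion for 4 values, were found 5 times among 70 groups examined, and chance alone marks about 1 in 20. Without the genes chosen for their likeness to the members, it was 3 of 60. Smtn was highest in hypertensive replicate 3, at 5.33, with the next rat at 4.85. Among the genes most like the members, the same array stood out for Agap1 at 4.54 (next rat 4.09) and for Kcnh2 at 1.26 (next rat 0.54). Those genes were picked for following a mean in which this array is highest, so this adds no separate observation. Klf4 was highest in hypertensive replicate 4, at 4.42, with the next hypertensive rat at 4.13 and all controls above both. Mb was lowest among controls in replicate 2, at -0.89, with the next control at -0.78.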

How the results depend on the processing

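No member passed the threshold under any alternative but normexp, where 1 did (Lmod1). Normexp used the median spot signal, since the files hold no mean signal, and was chosen after the files were seen. It gave 16 calls in the related lists (8 as reported) and 1857 over all tests (1111 as reported). Without a detection filter these counts were 3 and 641, and with the replicate block 3 and 675. Leaving out each array gave 3 to 13 calls in the related lists and 641 to 1510 over all tests, and 0 members passed in each. Estimates near 0 changed sign. Tagln was -0.031 with normexp, -0.024 with quantile normalization, -0.069 with median centring and -0.024 with array weights. Actg2 was -0.072, -0.070 and -0.019 with quantile normalization, median centring and array weights, and Myh11 was -0.0033 and -0.0067 with quantile normalization and median centring. With 1 array left out, Actg2 ran from -0.10 to 0.12, Myh11 from -0.039 to 0.16, Tagln from -0.11 to 0.12 and Des from -0.057 to 0.21. The cause was not tested. Same-numbered rats deviated together with correlations of -0.148 to 0.206, and 4 of 8 arrays correlated best with their own number in the other group. These values do not settle whether the numbers mark pairs. The labels name no pairs, and the main fit did not use them. The replicate block ended the calls of Myl9, Klf4 and Klf5 (adjusted p = 0.0865, 0.073 and 0.064), and also those of Mb and Mrc1. Without a detection filter Myl9, Klf5, Mb, Mrc1 and Myh1 lost theirs. Fhl2 kept its call under every alternative run.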
